A study of Mus musculus with 6 samples.

Results

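The genes described here are 36 regulators and enzymes of the Nrf2 antioxidant system, of 45706 genes in the count table. They were taken by symbol from a fixed list of redox regulators, glutathione and thioredoxin genes, peroxidases, NADPH suppliers, carbonyl and epoxide enzymes and ferritin chains, with glutathione transferases left out. All 36 were found in the table and all 36 passed the filter on low counts. The data are 3 poly(A) RNA libraries from liver of Entpd8 knockout mice (KO 1 to KO 3) and 3 from liver of wild-type mice (WT 1 to WT 3). Entpd8 encodes NTPDase8, an ectonucleotidase, and the series concerns liver ischemia-reperfusion injury. The labels do not say whether these livers had been ischemic. Strain, sex, age, the kind of deletion and the cells it reaches are not stated, and mice are said only to have been kept at a pathogen-free Charles River site. Since no label says that each library is a different animal, the p-values below describe library-to-library spread, which may be technical.

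Nrf2, the product of Nfe2l2, is a transcription factor that Keap1 holds in the cytoplasm and passes to a Cul3 ubiquitin ligase. Oxidants and electrophiles modify cysteines of Keap1, Nrf2 then accumulates, pairs with a small Maf protein and binds antioxidant response elements of genes for glutathione and thioredoxin metabolism, quinone reduction, heme breakdown and iron storage. Much of this control acts on the Nrf2 protein, which RNA counts do not measure. In liver, hepatocytes carry most of the body's glutathione synthesis and are rich in peroxisomal catalase, while macrophages are a further source of heme oxygenase.

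Library totals were 40800058 to 46473531 counts in KO and 32768774 to 39929978 counts in WT. Entpd8 had 15, 29 and 52 counts in KO 1, KO 2 and KO 3, against 1416, 876 and 2034 counts in WT 1, WT 2 and WT 3. The first principal component of log2 CPM (counts scaled to library size after TMM normalisation, per 1e6) held 53.8% of the variance and separated the genotypes. WT 2 stood apart from the other wild-type libraries on the second, which held 16.6%. Mitochondrially encoded transcripts made up 10.1% to 11.7% of counts in KO and 6.52% to 8.34% in WT libraries. The 8 hepatocyte markers, Alb among them, summed to 62780 to 81990 CPM in KO and 55540 to 73340 CPM in WT libraries, and none of the 8 passed the test. The 10 Kupffer cell and macrophage markers summed to 70.9 to 99.6 CPM in KO and 139.8 to 310.9 CPM in WT libraries, with 6 lower and 0 higher. All 5 erythroid markers were higher in KO, with sums of 1178 to 1546 CPM in KO and 368 to 546 CPM in WT libraries. The 5 biliary markers summed to 121.5 to 311.6 CPM in KO and 80.4 to 109.2 CPM in WT libraries, with 2 of them (Krt19 and Epcam) higher. Of 3 tested B and plasma cell markers, Jchain was called higher and 2 were not called. Of 4 tested T and NK cell markers, Cd3g was called higher and 3 were not called. Cd3g had few counts, at 17, 16 and 19 in KO 1 to KO 3 and 5, 7 and 3 in WT 1 to WT 3. Of 6 stellate cell markers, Col1a1 was called lower and 5 were not called. The 7 pericentral hepatocyte markers summed to 5914 to 6459 CPM in KO and 3352 to 4340 CPM in WT libraries, with 1 of them (Cyp2e1) called higher. Much of this difference was Cyp2e1, at 3704 CPM in KO and 1898 CPM in WT libraries on average. Of the others, Glul, Oat and Cyp1a2 had positive and Slc1a2, Axin2 and Lgr5 negative log2 fold changes, none of them called. The part of cell makeup or mitochondrial share in the results below was not tested. Fewer cells of a type and less RNA per cell cannot be told apart in such bulk samples.

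Of the 36 genes, 7 rose in KO libraries and 0 fell at an adjusted p under 0.05 (edgeR's quasi-likelihood test, Benjamini-Hochberg adjustment over 14069 genes). They were the regulator Nfe2l2, heme oxygenase Hmox1, sulfiredoxin Srxn1, catalase Cat, peroxiredoxin Prdx6, carbonyl reductase Cbr1 and aldehyde oxidase Aox1. This is 19.4% of the 36 genes, against 9.8% of all genes tested that rose. The share of all genes tested that fell was 10.6%. Of the 36 genes, DESeq2 called 10 higher and 1 lower and limma voom 8 higher and 0 lower. Over all genes, DESeq2 called 1869 higher and 1704 lower and limma voom 1383 higher and 1408 lower. Unadjusted p-values under 0.05 were found for 11 higher and 4 lower of the 36 genes. The share of all genes under that unadjusted p was not counted, so no excess can be read from it. For 15 of the 36 genes all KO libraries lay above all WT libraries (41.7%, against 18.7% of all genes tested), and for 3 all KO libraries lay below (22.0% of all genes tested). The median log2 fold change was 0.26 over the 36 genes and -0.02 over all genes tested. A positive value was found for 28 of the 36, against 47.9% of all genes tested. Antioxidant genes are abundant in liver, and abundant genes as a whole were called upward more often here. Among the 895 genes at or above the median level of the 36 (a mean log2 CPM of 7.13), 19.7% rose, 5.36% fell, 34.6% lay above and 10.9% below WT without overlap and the median log2 fold change was 0.21. Of the 18 described genes at or above that level, 4 rose (22.2%), with a median log2 fold change of 0.29. The share of risers was thus close to that of other abundant genes. The share of positive values among abundant genes was not counted. This level-based background was chosen after the values were seen.

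**Figure D1:**
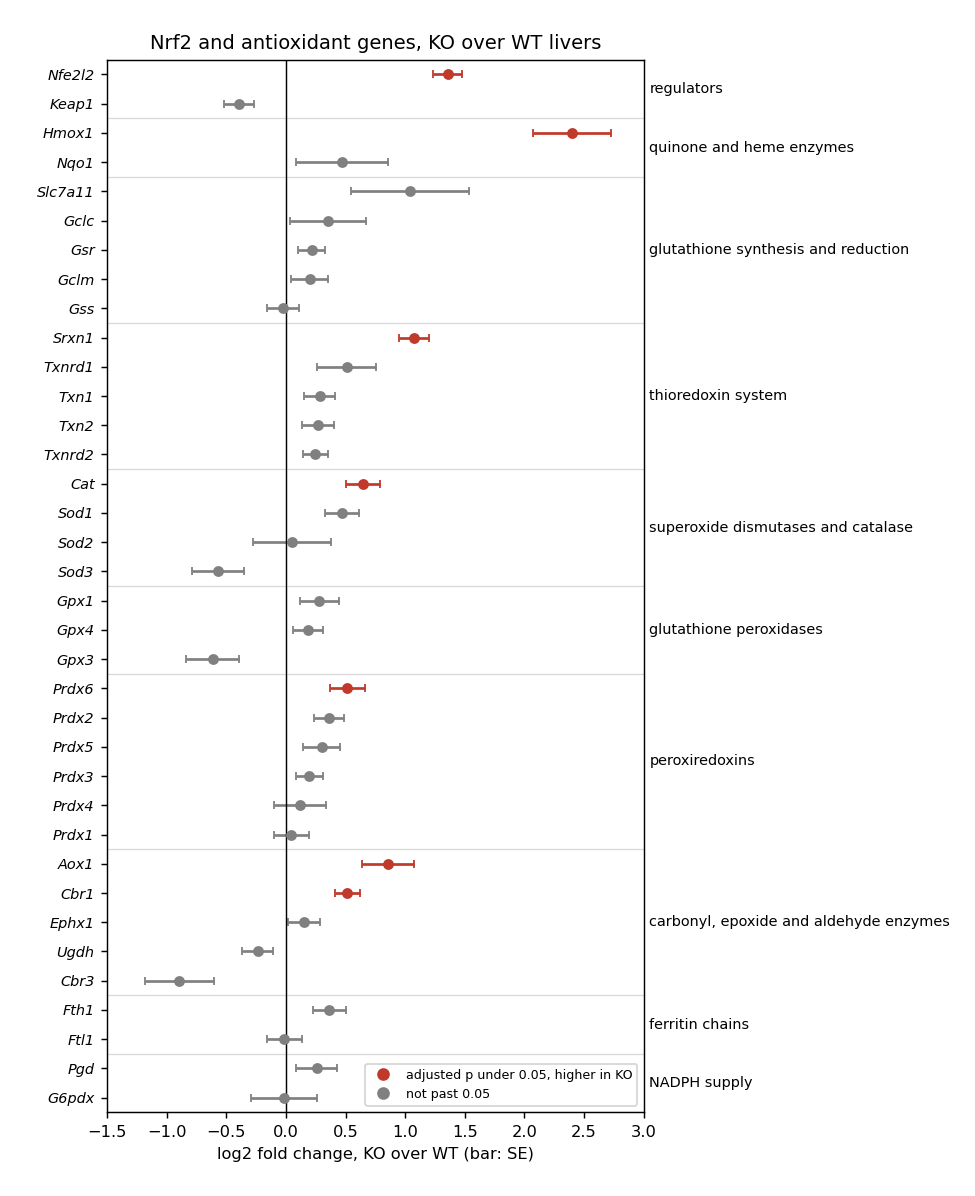
The log2 fold change of KO over WT (x axis) is shown for each of the 36 genes (y axis), grouped by role, with bars for the SE. The 7 genes past an adjusted p of 0.05 are red, from Prdx6 and Cbr1 at 0.51 to Hmox1 at 2.40, and the 29 others are grey.

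The calls were of unequal firmness. Nfe2l2, Hmox1 and Srxn1 were called under each of 19 alternatives, which included leaving out each library, other scalings and filters, DESeq2, limma voom and a test against a 1.5-fold change. Without KO 1, these 3 alone of the 36 were called. Without WT 1 there were 4 (with Cbr1), and without WT 2 there were 6 higher, with Sod1 gained and Prdx6 and Aox1 lost, and Keap1 called lower. There were 5 without KO 2 and 5 without KO 3. None of the 7 shares exonic bases with another annotated gene, whereas 10 of the other genes do.

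Nfe2l2 itself, the gene of Nrf2 (ENSMUSG00000015839, chromosome 2, 75675513 to 75704641, minus strand, GRCm38), was expressed at 83.6, 73.4 and 93.8 CPM in KO 1, KO 2 and KO 3. The wild-type libraries held 32.3, 31.8 and 33.8 CPM. The lowest KO library was thus well above the highest WT library, and the WT values differed from each other by 1.06-fold at most. The log2 fold change was 1.36 ± 0.12 (SE), a 2.56-fold rise, with an adjusted p of 0.00136. Across the alternative fits it ran from 1.27 to 1.44. Keap1, the Nrf2 inhibitor, had 40.1, 46.7 and 42.9 CPM in the KO libraries, against 64.6, 51.6 and 54.6 CPM in the WT libraries. All KO values lay below all WT values, but the log2 fold change of -0.40 ± 0.12 did not pass (adjusted p = 0.0571). It passed without WT 2 (adjusted p = 0.0398), with upper-quartile scaling (adjusted p = 0.0445) and with library totals alone (adjusted p = 0.0425). Over all alternatives the adjusted p of Keap1 ran from 0.0398 to 0.230.

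Hmox1, which opens the heme ring to release biliverdin, iron and carbon monoxide, had the largest rise of the 36 genes. It reached 685.9, 675.5 and 451 CPM in KO 1, KO 2 and KO 3, against 77.4, 172.4 and 94.5 CPM in WT 1, WT 2 and WT 3. The KO libraries did not overlap the WT libraries, KO 3 was the lowest of its group and WT 2 the highest of its own. The log2 fold change was 2.40 ± 0.33 (adjusted p = 0.00531), and it was 2.81 without WT 2. The gene lies on chromosome 8 (75093621 to 75100589, plus strand). Macrophage markers, whose cells also express Hmox1, were lower in KO libraries, with Clec4f at 17.3 CPM in KO and 53.2 CPM in WT libraries on average. Hemoglobin transcripts were higher in KO, with Hbb-bs at 596.7 CPM in KO and 154.8 CPM in WT libraries on average. The part of either in the Hmox1 result was not tested.

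Nqo1, a quinone reductase widely used as a readout of Nrf2, was low in all libraries. It had 5.75, 3.09 and 6.96 CPM in the KO libraries and 5.15, 2.18 and 4.11 CPM in the WT libraries. The groups overlapped, and the log2 fold change of 0.47 ± 0.38 did not pass (adjusted p = 0.418). Its spread within each group, 2.25-fold in KO and 2.37-fold in WT, was wider than the difference between the groups.

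**Figure D2:**
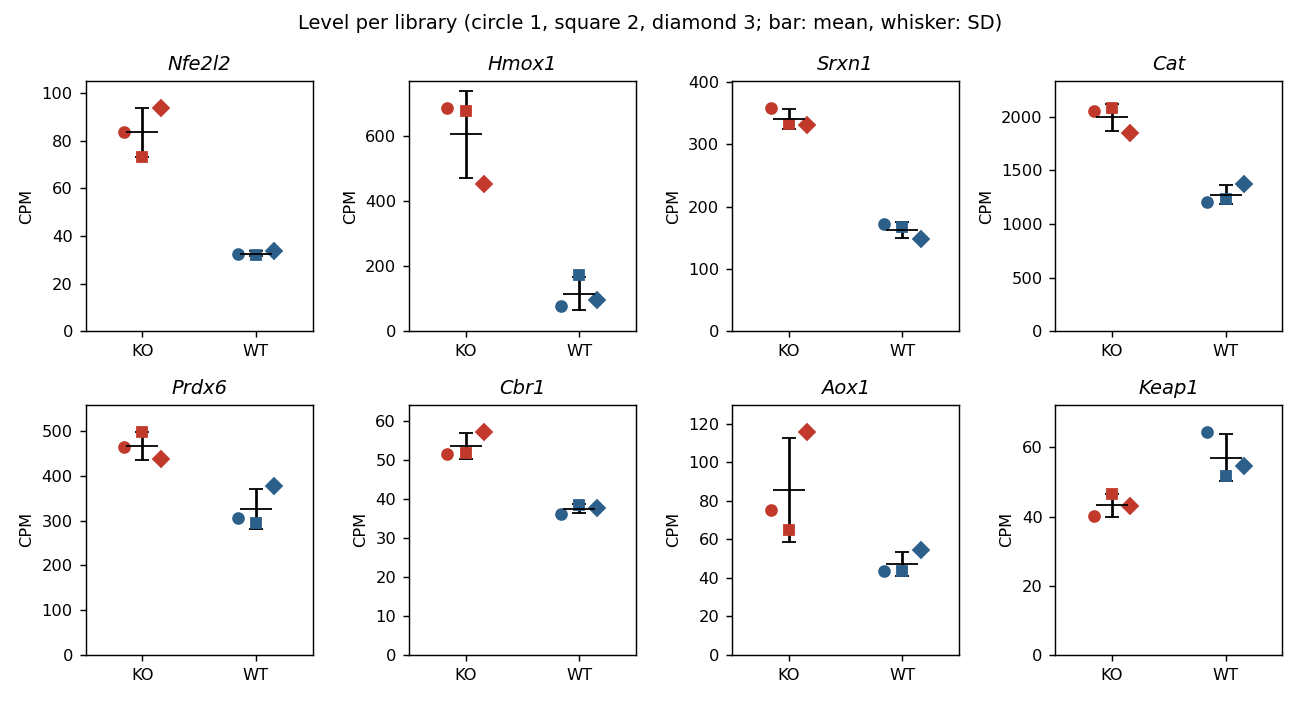
The level in CPM (y axis) is shown per library for the 7 genes called and for Keap1, with KO left of WT, a bar for the mean and a whisker for the SD (n = 3 per group). Points do not overlap between groups in any of the 8 panels, and Keap1 is the panel in which KO lies below WT.

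Srxn1 encodes sulfiredoxin, which reduces overoxidised peroxiredoxins. It rose in the KO libraries to 358.9, 333.1 and 330.9 CPM, against 171.9, 166.7 and 148.2 CPM in the WT libraries. Both groups were tight, with 1.08-fold between the highest and lowest KO library and 1.16-fold in WT. The log2 fold change was 1.07 ± 0.13 (adjusted p = 0.00308), and the alternatives gave 0.998 to 1.11. The gene lies on chromosome 2 (152105516 to 152111376, plus strand).

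The other thioredoxin genes had positive log2 fold changes that did not pass. Cytosolic thioredoxin Txn1 averaged 177.0 ± 16.4 CPM in KO and 145.4 ± 13.0 CPM in WT libraries (SD, n = 3 each), without overlap of the groups (log2 fold change 0.28 ± 0.13, adjusted p = 0.156). Mitochondrial thioredoxin Txn2 had a log2 fold change of 0.27 ± 0.13, and the mitochondrial reductase Txnrd2 one of 0.25 ± 0.11. The cytosolic reductase Txnrd1, a selenoprotein and Nrf2 target, had 346.3, 256.8 and 468.5 CPM in KO libraries and 259.1, 300.5 and 193.2 CPM in WT libraries. Its groups overlapped through KO 2 (log2 fold change 0.51 ± 0.25, adjusted p = 0.178).

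The 5 glutathione synthesis and reduction genes gave 0 calls with edgeR, DESeq2 or limma voom. Of the 5, 0 had an unadjusted p under 0.05, and 4 overlapped between the groups. Over all genes tested, edgeR called 9.8% higher and 10.6% lower, and 18.7% lay above and 22.0% below WT without overlap. Counts over 5 genes cannot be told apart from these shares. Gclc, the catalytic subunit of glutamate cysteine ligase and the rate-limiting step, had 978.4, 659.6 and 1279 CPM in KO libraries, against 975.7, 840.1 and 470.8 CPM in WT libraries. KO 2 lay below WT 1 and WT 2, and the log2 fold change of 0.35 ± 0.32 did not pass (adjusted p = 0.470). The modifier subunit Gclm averaged 186.7 ± 9.13 CPM in KO and 162.8 ± 29.6 CPM in WT libraries (log2 fold change 0.20 ± 0.15). Glutathione synthetase Gss averaged 71.7 ± 8.47 CPM in KO and 72.8 ± 7.70 CPM in WT libraries, with a log2 fold change of -0.02 ± 0.13. Glutathione reductase Gsr lay slightly higher in every KO library, at 96.6 to 110.7 CPM against 81.6 to 94.4 CPM in WT, with a log2 fold change of 0.21 ± 0.12 (adjusted p = 0.225). The cystine importer Slc7a11 was low, at 91, 66 and 152 counts in KO and 74, 37 and 18 counts in WT libraries, and its log2 fold change of 1.04 ± 0.50 did not pass (adjusted p = 0.172).

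Among the dismutases, catalase, glutathione peroxidases and peroxiredoxins, Cat and Prdx6 rose. Cat, the peroxisomal enzyme that splits hydrogen peroxide, reached 2052, 2084 and 1847 CPM in KO libraries, against 1206, 1237 and 1373 CPM in WT libraries. The groups were separate and each spanned less than 1.14-fold (log2 fold change 0.65 ± 0.14, adjusted p = 0.0192). Leaving out WT 1, KO 1 or KO 2 ended the Cat call, with adjusted p-values of at most 0.108. The cytosolic dismutase Sod1 had 648.9, 686 and 610.2 CPM in KO libraries and 444.9, 529.8 and 430.2 CPM in WT libraries, again without overlap. Its log2 fold change of 0.47 ± 0.14 did not pass (adjusted p = 0.0513), and it did pass in 7 of 17 other fits, among them that without WT 2 (adjusted p = 0.0313) and DESeq2 (adjusted p = 0.00867), with adjusted p up to 0.188 in the others.

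Mitochondrial manganese dismutase Sod2 had similar group means, with WT 2 far above the other WT libraries. It had 232, 202.4 and 272.3 CPM in KO libraries, against 171.2, 360.5 and 150.7 CPM in WT libraries. The log2 fold change was 0.05 ± 0.33, and it was 0.55 without WT 2 (adjusted p = 0.0527). The secreted enzymes had negative log2 fold changes. Extracellular dismutase Sod3 averaged 17.1 ± 4.50 CPM in KO and 25.5 ± 5.22 CPM in WT libraries (log2 fold change -0.57 ± 0.22, adjusted p = 0.103). Plasma glutathione peroxidase Gpx3 averaged 6.41 ± 1.39 CPM in KO and 9.82 ± 1.96 CPM in WT libraries (log2 fold change -0.62 ± 0.22, adjusted p = 0.0844), and it passed without WT 3 (adjusted p = 0.0466, against up to 0.209 over the alternatives). The main cytosolic enzyme Gpx1 and the lipid hydroperoxide enzyme Gpx4 had log2 fold changes of 0.28 ± 0.16 and 0.19 ± 0.12, neither past the threshold.

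All 6 peroxiredoxins had positive log2 fold changes, and 1 of them passed. Over all genes tested 47.9% had a positive value, and the median of the 895 abundant genes described above was 0.21. Prdx6, which uses glutathione and also has phospholipase activity, had 464.2, 498.6 and 436.3 CPM in KO libraries, against 306.7, 294.8 and 377.6 CPM in WT libraries. The groups did not overlap (log2 fold change 0.51 ± 0.15, adjusted p = 0.0425), but Prdx6 was called in just 1 of the 6 fits that leave out a library, the one without WT 3 (the others gave adjusted p-values of up to 0.151). It was also lost with upper-quartile scaling (adjusted p = 0.0593) or library totals alone (adjusted p = 0.0970). Prdx2, the peroxiredoxin abundant in red cells, had 94.8, 112.1 and 87.8 CPM in KO and 79.7, 74.7 and 74.5 CPM in WT libraries (log2 fold change 0.36 ± 0.13, adjusted p = 0.0748). Its exons share 173 bases with Junb on the other strand, an immediate-early gene that also rose (log2 fold change 0.97, adjusted p = 0.0402), and the labels do not say that strand was kept. Erythroid markers were also higher in KO, and the part of either in the Prdx2 values was not tested. Mitochondrial Prdx3 and Prdx5 had log2 fold changes of 0.20 and 0.30, endoplasmic reticulum Prdx4 of 0.12 and cytosolic Prdx1 of 0.04. The sign of Prdx1 turned with upper-quartile scaling (-0.00377) and library totals alone (-0.03).

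Among the carbonyl, epoxide and aldehyde enzymes, Cbr1 and Aox1 rose. Cbr1, a carbonyl reductase, had 51.6, 52.0 and 57.4 CPM in KO libraries, against 36.3, 38.6 and 37.8 CPM in WT libraries, with both groups tight (log2 fold change 0.51 ± 0.10, adjusted p = 0.0144). The call ended without KO 1 (adjusted p = 0.0685). Its neighbour Cbr3 on chromosome 16 had the opposite sign, at 43, 52 and 44 counts in KO and 56, 97 and 77 counts in WT libraries. In CPM all KO values of Cbr3 lay below all WT values (0.925 to 1.30 against 1.54 to 2.48), and the log2 fold change was -0.90 ± 0.29 (adjusted p = 0.0631). It passed with DESeq2 (adjusted p = 0.0411) and with the transcript length trend removed (adjusted p = 0.0319), against an adjusted p of up to 0.195 in the others.

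Aox1, a molybdenum-containing aldehyde and azaheterocycle oxidase, had 75.3, 65.0 and 116.0 CPM in KO libraries and 43.6, 43.6 and 54.6 CPM in WT libraries. KO 3 was far above the other KO libraries (log2 fold change 0.85 ± 0.22, adjusted p = 0.0319), and the value was 0.57 without it. The Aox1 call was kept without KO 2 or WT 3, ended in the 4 other fits that leave out a library (adjusted p at most 0.0954) and ended with library totals alone (adjusted p = 0.0678). Microsomal epoxide hydrolase Ephx1 had a log2 fold change of 0.15 ± 0.13. Ugdh, which makes the glucuronic acid donor, lay lower in every KO library (307.8 to 338.1 CPM, against 364.2 to 414.1 CPM in WT) without passing (log2 fold change -0.24 ± 0.13, adjusted p = 0.215).

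The ferritin chains, which store iron, and the NADPH suppliers gave 0 calls with edgeR, though Fth1 had an unadjusted p of 0.0302 and was called by DESeq2. With 2 genes of each kind, 0 calls cannot be told apart from the 9.8% higher and 10.6% lower over all genes tested. Ferritin heavy chain Fth1 had 1603, 1387 and 1567 CPM in KO libraries, against 1139, 1226 and 1176 CPM in WT libraries, without overlap (log2 fold change 0.36 ± 0.14, adjusted p = 0.1001). Light chain Ftl1, the most abundant of the 36, averaged 3397 ± 178 CPM in KO and 3436 ± 248 CPM in WT libraries (log2 fold change -0.02 ± 0.15). Reads of Ftl1 can be shared with its pseudogenes, and its estimated counts, like those of Gclm, Sod1 and Prdx1, lay more than 0.05 from a whole number in some library. G6pdx, the first enzyme of the pentose phosphate pathway, was low at 166 to 221 counts in KO and 108 to 237 counts in WT libraries, with a log2 fold change of -0.02 ± 0.28. It shares 418 exonic bases with Ikbkg on the other strand, which had 3039 to 4117 counts in KO and 4170 to 4353 in WT libraries. Pgd, the next NADPH-producing enzyme, had a log2 fold change of 0.26 ± 0.17.

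**Figure D3:**
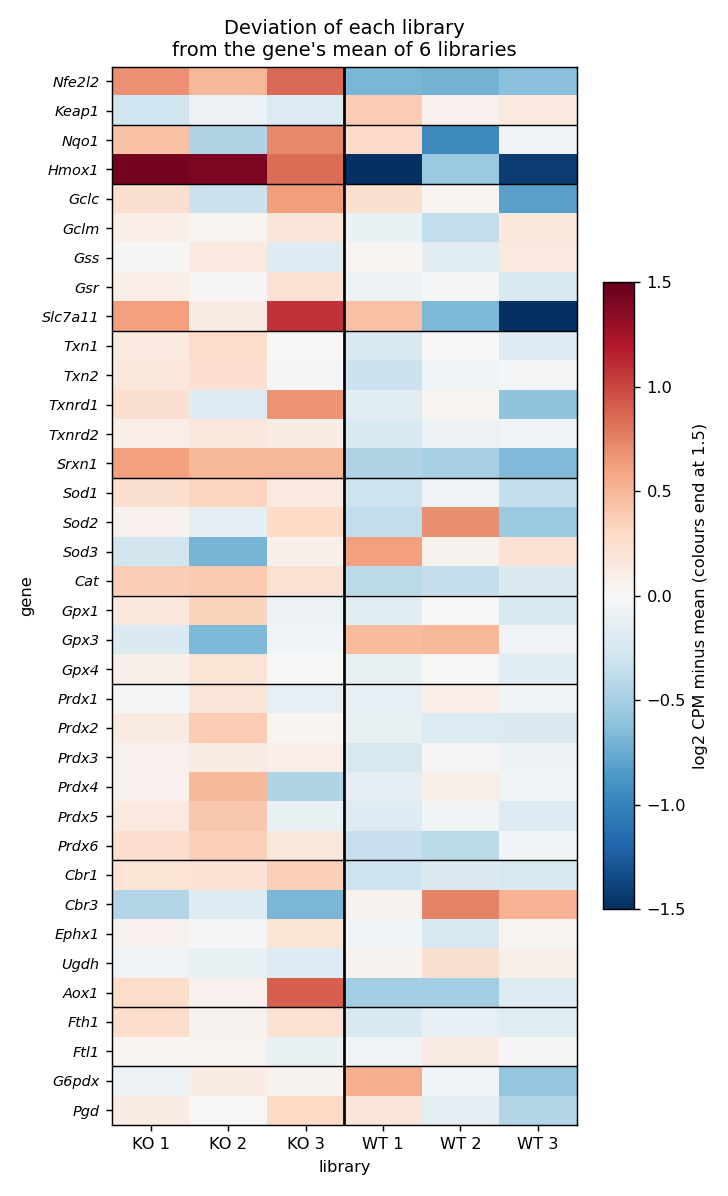
Colour gives the log2 CPM of each library (columns, KO left of WT) minus the mean of the 6 libraries for each gene (rows, black lines between roles). Nfe2l2, Hmox1, Srxn1 and Cat are red in all KO columns, while Nqo1, Gclc and Txnrd1 are mixed within both groups.

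The genes fell into tight and variable ones within genotypes. For 23 of the 36, the highest library exceeded the lowest by no more than 1.5-fold in either group. For 5 it exceeded that in both groups, namely Nqo1, Hmox1, Gclc, Slc7a11 and Txnrd1. Srxn1, Gclm, Gsr and Prdx1 were among the 23. The shares of all genes with such spreads were not counted. Within the KO group, Nqo1, Gclc, Slc7a11 and Txnrd1 had the same order, with KO 3 highest and KO 2 lowest. This order held for 13 of the 36 genes, Nfe2l2 and Aox1 among them, and for 28.5% of all genes tested. The reverse order, with KO 2 highest and KO 3 lowest, held for 14 genes, among them Cat, Sod1, Gpx1, Gpx4 and 5 of the 6 peroxiredoxins, and for 28.0% of all genes tested. Over the 895 genes at or above the median level of the 36, these orders held for 20.9% and 51.2%. Hepatocyte markers summed to 81990 CPM in KO 2 and 62780 CPM in KO 3, while biliary markers summed to 121.5 CPM in KO 2 and 311.6 CPM in KO 3. The part of cell makeup in these orders was not tested.

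Divided by exon length, the levels of the 36 genes spanned a wide range (CPM per kb of annotated exon). Ftl1 was highest, at 2535 ± 133 CPM per kb in KO and 2564 ± 185 CPM per kb in WT libraries (SD, n = 3 each). Gpx1 followed with 1017 ± 146 in KO and 838.2 ± 74.3 in WT, and Cat with 763.3 ± 49.3 in KO and 486.8 ± 34.2 in WT. Hmox1 ranked 5 of 36 in KO libraries, at 345.0 ± 75.8 CPM per kb, and 13 of 36 in WT libraries, at 65.5 ± 28.9 CPM per kb. Nfe2l2 had 22.0 ± 2.70 CPM per kb in KO, against 8.60 ± 0.269 in WT libraries, above Keap1 in KO (9.21 ± 0.698) and below it in WT (12.1 ± 1.45). Slc7a11 was lowest, at 0.171 ± 0.0559 CPM per kb in KO and 0.0835 ± 0.0569 in WT libraries. With the longest coding transcript as the length, 8 of the 10 highest genes were shared.

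**Figure D4:**
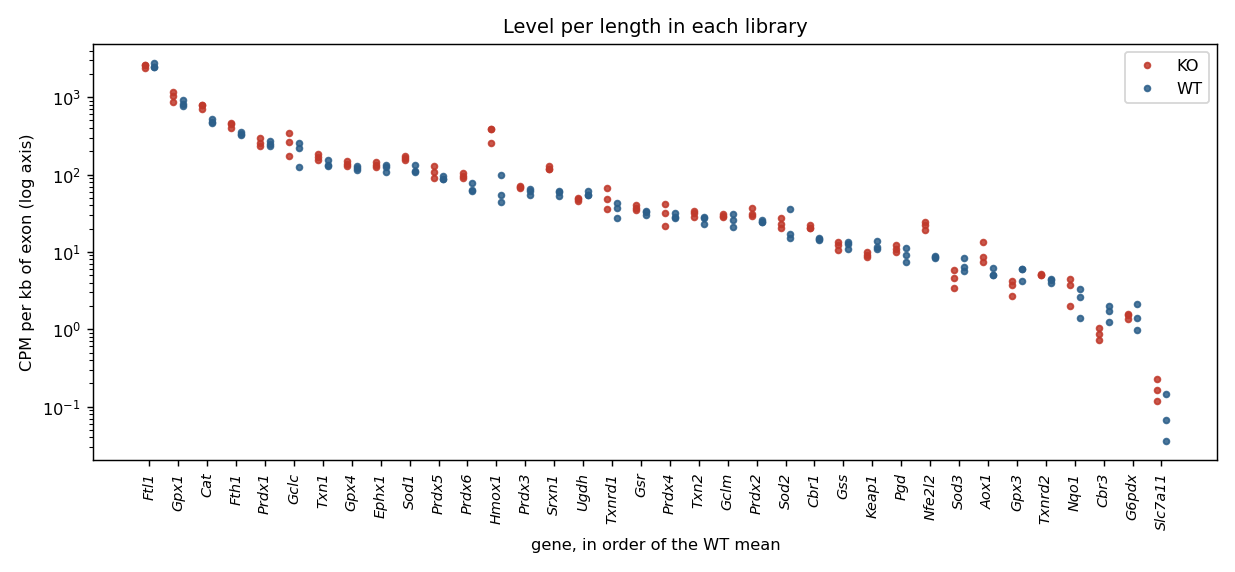
The level per kb of exon (log axis) is shown for each library, KO in red left of WT in blue, with genes in order of their WT mean. The order runs from Ftl1 to Slc7a11, and Hmox1, Srxn1 and Nfe2l2 are the genes whose KO points lie wholly above their WT points with a mean more than 2-fold higher.

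Promoter windows of the genes were searched for the core of the antioxidant response element, TGACNNNGC, and for the AP-1 site, TGANTCA, on both strands, from 250 bases before to 50 bases after the RefSeq start (GRCm38.p6). The core can overlap an AP-1 site, and TGANTCA reads the same on both strands. RefSeq windows were at hand for 31 of the 36 genes and for 5 of the 7 that rose. None was at hand for Hmox1, Prdx6, Gclc, Gsr and Sod3, so these genes were not searched. The core was in 9 of the 31 genes, namely G6pdx, Gclm, Nfe2l2, Pgd, Prdx1, Sod1, Srxn1, Txnrd1 and Ugdh, and in 9 of their 38 windows, against 12.4% of all 32817 windows. AP-1 letters were in 3 of the 31 genes, namely Aox1, Prdx1 and Srxn1. They were in 3 of the 38 windows, a share close to the 7.81% of all windows. The 250 bases before the start are shown for the risers Nfe2l2, Srxn1 and Aox1, which hold a match there, and for Prdx1, which holds both motifs and did not pass the test. They lie at chr2:75704664-75704913 (Nfe2l2, minus strand), chr2:152105274-152105523 (Srxn1, plus strand), chr1:58029719-58029968 (Aox1, plus strand) and chr4:116685349-116685598 (Prdx1, plus strand), each read 5′ to 3′ along its gene, with matches in capitals.
Nfe2l2: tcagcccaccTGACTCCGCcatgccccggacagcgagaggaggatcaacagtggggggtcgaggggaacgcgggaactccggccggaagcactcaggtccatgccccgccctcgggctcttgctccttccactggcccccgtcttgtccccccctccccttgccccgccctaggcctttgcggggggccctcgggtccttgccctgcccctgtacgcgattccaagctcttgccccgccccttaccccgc
Srxn1: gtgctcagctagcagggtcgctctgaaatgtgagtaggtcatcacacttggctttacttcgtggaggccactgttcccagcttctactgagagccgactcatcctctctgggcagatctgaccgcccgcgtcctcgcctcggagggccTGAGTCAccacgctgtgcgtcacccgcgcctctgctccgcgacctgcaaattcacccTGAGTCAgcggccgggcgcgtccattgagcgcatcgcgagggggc
Aox1: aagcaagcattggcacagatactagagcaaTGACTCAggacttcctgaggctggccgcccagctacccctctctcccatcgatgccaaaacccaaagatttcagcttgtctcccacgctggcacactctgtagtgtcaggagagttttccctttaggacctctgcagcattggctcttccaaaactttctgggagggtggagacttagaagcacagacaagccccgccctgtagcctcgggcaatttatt
Prdx1: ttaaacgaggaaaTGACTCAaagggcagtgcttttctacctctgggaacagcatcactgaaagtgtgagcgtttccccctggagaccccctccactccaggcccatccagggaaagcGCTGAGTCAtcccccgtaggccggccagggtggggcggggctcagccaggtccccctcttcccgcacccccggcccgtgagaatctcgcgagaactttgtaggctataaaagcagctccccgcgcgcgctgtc
In Nfe2l2 the capitals mark a core at positions -240 to -232 from the start. In Srxn1 they mark AP-1 letters at -102 to -96 and -45 to -39, and a core also lies after its start, at positions 29 to 37. The stretch from -45 reads TGAGTCAgc, with G where the core has C, so the search did not count it as a core. Aox1 has AP-1 letters at -220 to -214. Prdx1 has AP-1 letters at -237 to -231, and its second block at -133 to -125 is a core on the reverse strand that contains AP-1 letters. Prdx1 averaged 793.6 ± 88.6 CPM in KO and 769.5 ± 61.2 CPM in WT libraries, and its difference did not pass. Srxn1, which was called higher, also holds both motifs in the longer window. A match describes these letters only and does not show that a factor binds. The absence of a match holds for this window and these letters alone, as sequence further from the start was not searched.

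Genes around the 36 were read from 7 further lists, in which 27 of 112 tested genes rose and 9 fell. Over all genes tested 9.8% rose and 10.6% fell, and among the 895 abundant genes described above 19.7% rose and 5.36% fell, so each list's counts are to be read against these shares. Of 17 tested Nrf2 partners, repressors and degradation factors, 5 rose and 2 fell, with a median log2 fold change of 0.07. The small Maf genes Maff and Mafk, whose proteins pair with Nrf2 or with each other, rose by 2.94 ± 0.37 and 1.40 ± 0.13 on the log2 scale (adjusted p = 0.00498 and 0.00136). Maff reached 73.2, 59.4 and 84.3 CPM in KO libraries, against 10.5, 13.2 and 4.47 CPM in WT libraries. Bach1, the heme-sensitive repressor that competes with Nrf2 at Hmox1, also rose (129.5, 97.7 and 166.6 CPM in KO, against 41.2, 50.7 and 32.8 CPM in WT libraries; log2 fold change 1.66 ± 0.23, adjusted p = 0.00522). Its relative Bach2 rose by 1.70 ± 0.25. These 4 stayed past the threshold in each of 17 other fits. Mafg, the third small Maf, had a log2 fold change of 0.09 ± 0.11, and the ubiquitin ligase scaffold Cul3 0.11 ± 0.13. The other calls of this list were Gsk3b, higher, and Kpna6 and Trim21, lower.

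Of 20 tested other reported Nrf2 targets, 7 rose and 0 fell with edgeR, with a median log2 fold change of 0.55, against -0.02 over all genes tested and 0.21 over the abundant ones. DESeq2 called 11 higher and 0 lower, limma voom 7 higher and 0 lower, and 12 higher and 0 lower had an unadjusted p under 0.05. The share of all genes under that unadjusted p was not counted. Ugt1a6a, a glucuronosyltransferase, rose by 0.57 ± 0.12, transketolase Tkt by 0.56 ± 0.12, Pir by 0.60 ± 0.14 and the cytosolic NADPH producer Idh1 by 0.51 ± 0.12. Osgin1, Blvrb and Cyp2a5 were the others. Leaving out KO 1 ended the calls of these 7 genes, with adjusted p-values of 0.0715 to 0.136. Reads of Ugt1a6a and Cyp2a5 can be shared with close paralogs.

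Of 24 tested thiol repair and other redox genes, 9 rose and 2 fell (median log2 fold change 0.28). Txnip, which binds and inhibits thioredoxin, rose to 101.9, 154.7 and 76.5 CPM in KO libraries, against 29.2, 26.7 and 27.0 CPM in WT libraries (log2 fold change 2.01 ± 0.24, adjusted p = 0.00364). Glutaredoxin Glrx (0.65 ± 0.11) and mitochondrial Idh2 (0.57 ± 0.10) rose, and the methionine sulfoxide reductase Msrb3 fell by 0.70 on the log2 scale. Glrx, Idh2 and Msrb3 lost their calls without KO 1, at adjusted p-values of 0.0548 to 0.0710. Of 14 tested glutathione turnover genes, 3 rose and 1 fell. 5-oxoprolinase Oplah, which returns oxoproline to glutamate, fell to 88.7, 93.7 and 97.3 CPM in KO libraries, against 173.0, 170.1 and 167.3 CPM in WT libraries (log2 fold change -0.87 ± 0.11, adjusted p = 0.00366). The glyoxalases Glo1 (0.64 ± 0.13) and Hagh (0.85 ± 0.19) and the cysteine-forming enzyme Cth (1.05 ± 0.23) rose, but without KO 1 their adjusted p-values were 0.0727 to 0.0755.

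Of 20 tested iron and heme genes, 2 rose and 4 fell (median log2 fold change -0.14). The ferrireductase Steap3 rose by 1.14 ± 0.15 and the iron regulatory protein gene Aco1 by 0.48 ± 0.12, while the other iron regulatory protein gene, Ireb2, fell by 0.54 on the log2 scale. Haptoglobin Hp, which binds free hemoglobin, fell by 1.29 (adjusted p = 0.0104), and hemopexin Hpx and the heme synthesis enzyme Alas1 also fell. Steap3 stayed past the threshold in each of the 17 other fits, and Aco1, Ireb2, Hp, Hpx and Alas1 did not pass without KO 1. Of 8 selenoprotein synthesis genes, 0 passed in either direction with edgeR, DESeq2 or limma voom. The lowest adjusted p was 0.0656, for the elongation factor Eefsec, which was also the 1 gene with an unadjusted p under 0.05. Of 9 tested oxidant-producing enzymes, the hydrogen peroxide-forming oxidase Nox4 rose (0.83 ± 0.24, adjusted p = 0.0426) and 0 fell with edgeR, while 1 was lower with DESeq2, 0 with limma voom and 1 at an unadjusted p under 0.05. The phagocyte oxidase subunit Cybb had a log2 fold change of -1.05 ± 0.34 (adjusted p = 0.0626), beside lower macrophage markers. Cybb was called lower with DESeq2 (adjusted p = 0.0167), without WT 2 and without KO 3, and its adjusted p ran up to 0.177 over the alternatives. Nox4 kept its call without WT 3 or KO 3 and lost it in the 4 other fits of that kind (adjusted p at most 0.131).

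**Figure D5:**
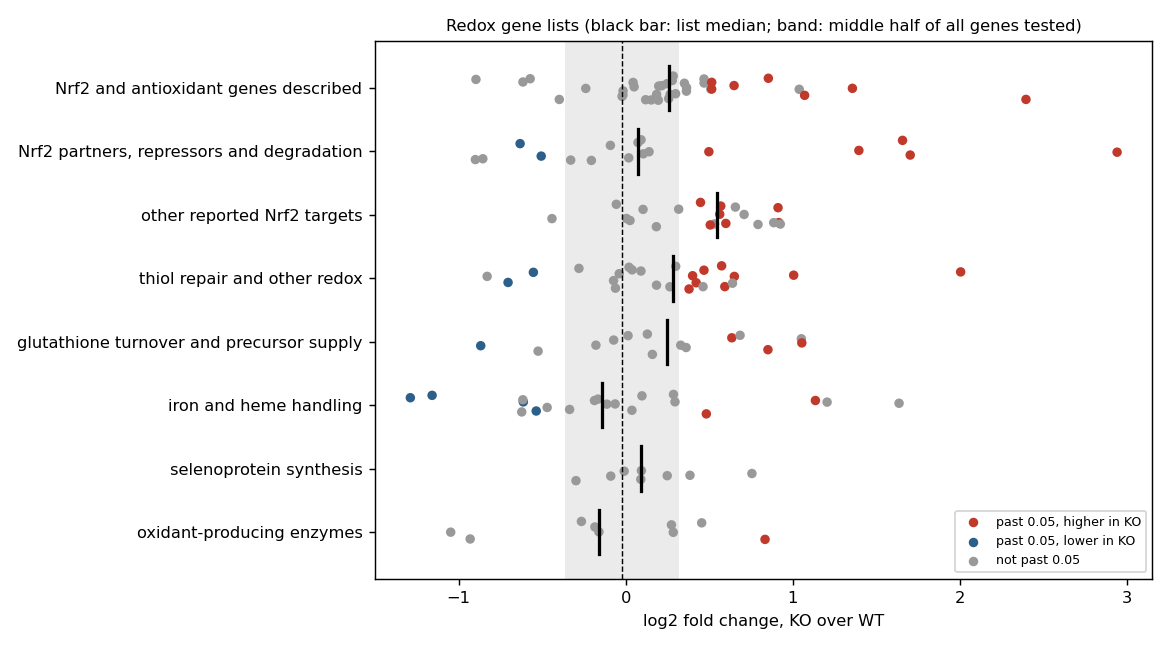
Each point is the log2 fold change of KO over WT (x axis) of a tested gene in the 36 described genes or in a further list (y axis), red or blue where past an adjusted p of 0.05. Black bars are list medians, from -0.16 for oxidant-producing enzymes to 0.55 for other reported Nrf2 targets, and the band runs between the quartiles of all genes tested, -0.36 and 0.31.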

How the data were processed

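Gene counts came from poly(A) RNA libraries of liver, 3 KO and 3 WT. RNA came from a column kit and libraries from NEBNext poly(A) kits, per the labels' protocols, which do not mention strand. Per the submitters' processing notes, the authors used Trim Galore, STAR and Salmon with GRCm38. Tool versions and parameters were not given in the sources used here. Expected counts per gene, not scaled, were deposited, of which 8.38% to 9.32% per library were not exactly whole. They were rounded, filtered with filterByExpr (14069 of 45706 genes kept), scaled by TMM and, in R 4.3.3, tested for genotype with the robust quasi-likelihood fit of edgeR 4.0.16, two-sided, with Benjamini-Hochberg adjustment over all genes tested and a threshold of 0.05. The SE was obtained from the log2 fold change and its F value. With 3 against 3, an exact permutation test cannot go below 0.1. GENCODE M21 (GRCm38) gave symbols for 45143 IDs, positions and exon lengths. The 563 other IDs stayed in the fit and held 0.0379% to 0.0509% of counts. Promoter windows are from RefSeq.

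The 36 genes and all lists were chosen with earlier results of these data known, so no p is given for a list. From each further list, up to 4 tested genes were named, in order of p and above a mean log2 CPM of 0, and others were named after their values were seen. On simulated counts for KO over WT (13678 genes in the fit) the recovered share was 79.8% for 3-fold and 7.22% for 1.5-fold changes, and 5 of 13482 unchanged genes were called. The simulation changed 100 genes at each fold, whereas 1379 genes were called higher and 1492 lower in the data. The adjustment is stricter when fewer genes change, so the recovered shares do not give the sensitivity of the fit to the data. Libraries of a group differed by 34.9 to 141 times counting noise, so none was the same library deposited again. Other settings tried were scaling by RLE, upper quartiles or totals, no filter or a stricter one, no robust weights, DESeq2 1.42.0, limma 3.58.1 voom, mitochondrial and hemoglobin genes left out, the length trend removed (lowess span 0.5), a replicate block, leaving out each library, a threshold of 0.1 and a 1.5-fold minimum. Figures were drawn with matplotlib 3.10.9.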

Additional observations from a re-analysis of the deposited data

How the results depend on the processing

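Over the 6 fits that each leave out a library, 385 to 1390 genes were higher and 218 to 1690 lower, 3 to 7 of the 36 antioxidant genes were higher and 0 to 1 lower, and 6 to 22 genes of the further lists were higher and 1 to 9 lower. Among these fits, each lowest count of higher genes was the one without KO 1. The fold change of Entpd8 on the log2 scale ran from -6.14 to -5.36.

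Of the 612 values of the 36 genes under 17 alternatives, 556 kept their direction and their side of the threshold. Calls ended in 18 values (4 genes), were gained in 15 (6 genes), and signs turned in 23 (6 genes). The genes whose signs turned had main log2 fold changes from -0.02 (Gss) to 0.12 (Prdx4). Their turned values reached 0.31 (G6pdx without WT 1). Signs turned for Gss (0.00495 with RLE, 0.00243 with DESeq2, 0.0725 with the length trend removed), Ftl1 (0.00918 with RLE, 0.00608 with DESeq2), G6pdx (0.0103 with RLE, 0.00779 with DESeq2, 0.0538 with limma voom, 0.0503 with the replicate block) and Prdx1 (-0.00377 with upper-quartile scaling, -0.0347 with totals alone). Leaving out libraries gave ranges across 0 for Gss (-0.10 to 0.0688), Sod2 (-0.18 to 0.55), Prdx1 (-0.0459 to 0.11), Prdx4 (-0.13 to 0.33), Ftl1 (-0.0591 to 0.0432), G6pdx (-0.25 to 0.31) and the list gene Cyba (-0.46 to 0.17). The cause was not tested.

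Keap1 was called lower with upper-quartile scaling and totals alone, and Cbr3 with DESeq2 and the length trend removed. Each of these settings thus gave 1 of the 36 genes lower, against 0. At an adjusted p under 0.1, 2249 genes and 3 of the 36 were lower. With a 1.5-fold minimum, 230 genes were higher and 93 lower, 3 of the 36 were higher, and 6 list genes were higher and 0 lower, against 27 and 9. With totals alone, 14 list genes were higher. The median of the 36 genes stayed between 0.19 and 0.29. Motif shares were 10.2% for the core and 6.75% for AP-1 in the 250 bases before the start alone.

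The replicate numbers share no stated pairing, and deviations of same-numbered libraries correlated at -0.0762, 0.0126 and -0.0853. With the replicate block, 807 genes were higher and 661 lower, 5 of the 36 were higher (Aox1, Cbr1, Hmox1, Nfe2l2 and Srxn1), and 13 list genes were higher and 4 lower. The alternatives for list genes were chosen after seeing the data. Of the 36 list genes called, 7 (Maff, Mafk, Bach1, Bach2, Txnip, Oplah and Steap3) were called in each of the 17 other fits at the same threshold, and the calls of 29 ended in at least 1 fit that leaves out a library. The lowest counts of the 36 genes were those of Slc7a11, Cbr3, Nqo1 and G6pdx; what limits their precision was not tested.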
